A study of Mus musculus with 8 samples.

Results

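Cap2 and 6 other genes of actin filament turnover were followed in mouse Paneth cells, the secretory cells at the base of the small intestinal crypts. The 7 genes were the cyclase-associated proteins Cap1 and Cap2, the cofilins Cfl1 and Cfl2, destrin (Dstn) and the profilins Pfn1 and Pfn2, out of 55414 gene IDs in the count table. They were found by matching Ensembl gene IDs to GENCODE symbols, and each symbol had 1 ID. Cap2 was picked because it differed between zinc and water in these same libraries, so its difference is a description and no test of it is offered as support. The other 6 were picked as its relatives and partners and not by their values.

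All mice were C57BL/6J, and the labels name no engineered allele. The water group drank Milli-Q water and the zinc group drank water with 25 mM ZnSO4, in both cases for 7 days. The sources used here do not give their age. Cells of the small intestine were dispersed and sorted by fluorescence, and RNA of the sorted Paneth cells gave 1 library per mouse, with 4 libraries per group and 20760764 to 24117111 counts each.

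Actin filaments grow at one end and come apart at the other. Cofilins and destrin bind the older part of a filament, cut it and hasten its loss, and they release actin monomers that carry ADP. Cyclase-associated proteins work with cofilin at the shrinking end and reload the monomers with ATP, and profilins hand the reloaded monomers to the growing end. In the intestinal epithelium, actin filaments fill the microvilli and form the layer below the cell surface where granules are released. CAP1, cofilin 1 and profilin 1 are found in most tissues, while CAP2 and cofilin 2 are best known from striated muscle and profilin 2 from the brain.

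The genes lie on 7 different chromosomes of GRCm39. Cap1 (ENSMUSG00000028656) lies on chr4:122752832-122779903, minus strand, with 13 merged exons. Cap2 (ENSMUSG00000021373) lies on chr13:46655324-46803773, plus strand, with 14 merged exons. Cfl1 (ENSMUSG00000056201) lies on chr19:5540483-5545229, plus strand, with 4 merged exons, and Cfl2 (ENSMUSG00000062929) on chr12:54905587-54909886, minus strand, with 3. Dstn (ENSMUSG00000015932) lies on chr2:143756845-143786267, plus strand, with 7 merged exons. Pfn1 (ENSMUSG00000018293) lies on chr11:70540882-70545976, minus strand, with 3 merged exons, and Pfn2 (ENSMUSG00000027805) on chr3:57738719-57755519, minus strand, with 5.

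Whether reads of Cap2 could be confused with those of its far more abundant relative Cap1 bears on every Cap2 count, and the stretch where both coding sequences are most alike is shown for that reason. Over the whole coding sequence (1425 bases in Cap1 and 1431 in Cap2), 66% of aligned bases were identical. The most similar 75 bases differed at 10 positions, which are in capitals, and the longest run of identical bases anywhere was 17. The stretch runs 5′ to 3′ over coding bases 1087 to 1161 of Cap1 (chr4:122756234-122756443, minus strand) and 1096 to 1170 of Cap2 (chr13:46793395-46793562, plus strand), and it crosses 1 exon junction in each. The sequences are those of GENCODE M39 on GRCm39.
Cap1: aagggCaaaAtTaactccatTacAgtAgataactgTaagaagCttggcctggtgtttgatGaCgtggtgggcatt
Cap2: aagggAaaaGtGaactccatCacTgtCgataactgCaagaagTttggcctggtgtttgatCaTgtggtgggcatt

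No 75-base window of the transcripts of any of the 7 genes was found in another of them. For Cap2, 99% of windows occurred in no other annotated gene, and the rest lay in Gm35110, a non-coding gene on the opposite strand that had 0 counts in all 8 libraries. The share was 95.5% for Cap1, 96.1% for Cfl2, 99% for Dstn and 98.2% for Pfn2. It was lower for Cfl1 (80.8%) and Pfn1 (54.8%), whose exons overlap Snx32 and Rnf167 on the opposite strand over 32.9% and 31.9% of their length. The library kit kept the strand, but the sources used here do not say whether the counting used it. Snx32 had 1 to 11 counts per library and Rnf167 had 349 to 628, against 1722 to 3802 for Cfl1 and 3341 to 6670 for Pfn1.

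The 3 members of the cofilin family share the serine near their start through which they are switched off. LIM kinases and TES kinases phosphorylate it and slingshot phosphatases remove the phosphate. The first 60 coding bases (GENCODE M39, GRCm39) are shown with this codon, number 3 in each, in capitals.
Cfl1: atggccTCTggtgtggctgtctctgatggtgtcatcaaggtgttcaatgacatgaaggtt
Cfl2: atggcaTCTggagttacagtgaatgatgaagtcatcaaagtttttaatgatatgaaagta
Dstn: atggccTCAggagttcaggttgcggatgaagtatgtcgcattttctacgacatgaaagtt
Over the whole coding sequences, 71.5% of aligned coding bases were identical between Cfl1 and Cfl2, 68.5% between Cfl1 and Dstn, 67.7% between Cfl2 and Dstn and 61.5% between Pfn1 and Pfn2.

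The sorted cells carried the Paneth cell programme in both groups. The 11 Paneth cell markers, led by Defa24, Lyz1 and Itln1, summed to 362154 to 709921 CPM with water and 342692 to 704830 CPM with zinc. CPM are counts per 1000000 of the effective library size, which is total counts times the TMM factor of edgeR. They do not add up to 1000000 in a library, so these sums are not shares of a library. Water replicate 1 had 20949548 counts and an effective size of 15.99 times 1000000, and water replicate 4 had 21600340 and 26.2 times 1000000. Because CAP2 and cofilin 2 are known from muscle, markers of other cell types were read as well. Of 10 smooth muscle markers, 4 were at 0 in every library (Acta2, Myh11, Cnn1 and Lmod1), 7 had fewer than 10 counts in every library, and the sum was 9.19 to 19.1 CPM with water and 6.83 to 12.4 CPM with zinc. The 8 striated muscle markers summed to 0.550 to 2.14 CPM with water and 0.751 to 1.497 CPM with zinc, with Myh6 at 0. The 9 neuron and glia markers summed to 0.563 to 1.55 CPM and 0.483 to 0.711 CPM, and 6 of 7 fibroblast markers were at 0 in every library. The 6 endothelial markers summed to 0.601 to 1.18 CPM with water and 0.386 to 2.02 CPM with zinc, and the 10 immune markers to 15.4 to 35.2 CPM and 13.1 to 24.9 CPM. Other epithelial lists were also present, with ranges in water and in zinc of 4981 to 6513 and 3712 to 5169 CPM for stem cells, 3758 to 5244 and 4342 to 7607 CPM for goblet cells, 355 to 394 and 345 to 410 CPM for enterocytes, 72.8 to 147 and 75.1 to 102 CPM for enteroendocrine cells and 16.5 to 145 and 21.1 to 97.7 CPM for tuft cells. No tested marker of the 12 lists passed the threshold between zinc and water, against 0.0834% of all tested genes. Tests covered 2 of 10 smooth muscle, 1 of 8 striated muscle, 1 of 6 endothelial and 1 of 10 immune markers. Of the fibroblast and the neuron and glia markers, 0 were tested. All 11 Paneth cell, 7 stem and 7 goblet markers were tested, with 7 of 10 enterocyte, 8 of 10 enteroendocrine and 6 of 7 tuft markers. The part of other cell types in the values below was not tested.

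Cap2 was a rare transcript in water-fed mice and rarer still with zinc. Its counts were 47, 70, 66 and 64 in the water libraries, in the order of replicates 1 to 4, and 13, 15, 11 and 20 in the zinc libraries. The exact Poisson 95% intervals of these counts, which cover counting error only, ran from 34.5 at the lowest to 88.4 at the highest with water and from 5.49 to 30.9 with zinc. Every water library lay above every zinc library, which is the difference Cap2 was selected on.

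On the CPM scale the values were 2.94, 3.01, 2.79 and 2.44 with water and 0.772, 0.724, 0.435 and 0.776 with zinc. The means were 2.80 ± 0.251 and 0.677 ± 0.163 CPM (SD, n = 4 each), a ratio of 4.13. The values behind the choice of Cap2 were a log2 fold change of -2.05 (SE 0.35, 95% interval -2.78 to -1.31) and an edgeR adjusted p of 0.0259. In bulk RNA, fewer cells that express a gene and less RNA per cell cannot be told apart. Cap2 was near the lower end of the tested genes, with 12.9% of them at a lower mean CPM. Its edgeR adjusted p was outside the threshold with library totals as the only scaling (0.0689) and in 5 of the 8 fits that left out a library, namely water replicate 1 (0.0555), 2 (0.126) or 3 (0.117) or zinc replicate 2 (0.0980) or 3 (0.0970). The log2 fold change stayed between -2.13 and -1.88 in those 8 fits.

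**Figure D1:**
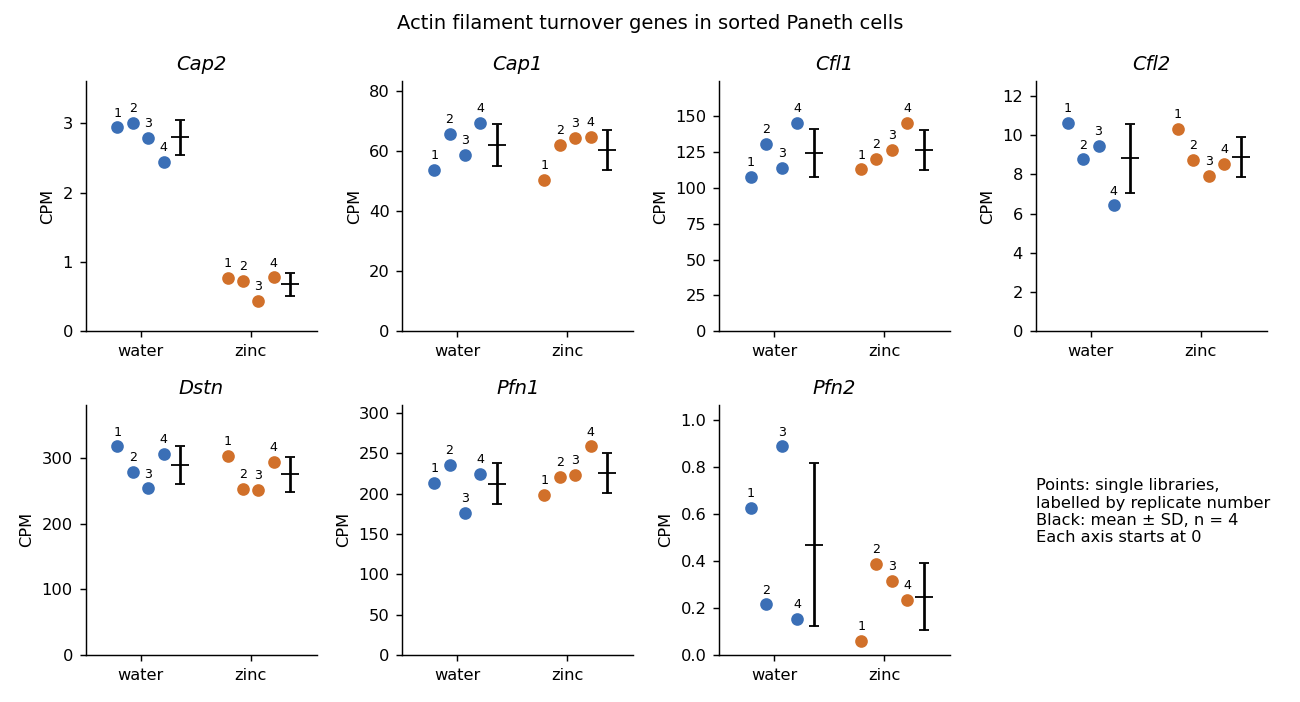
CPM of the 7 genes in the 4 water (blue) and 4 zinc (orange) libraries, 1 point per library with its replicate number, and the mean ± SD of each group in black; every axis starts at 0. Cap2 lay between 2.44 and 3.01 CPM with water and between 0.435 and 0.776 CPM with zinc, whereas the ranges of the groups overlapped in the other 6 genes.

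Cap1, the widely expressed relative of Cap2, showed no detectable difference. It had CPM values of 53.9, 65.9, 58.7 and 69.5 with water, in the order of replicates 1 to 4, and of 50.6, 62.2, 64.6 and 64.8 with zinc. The ranges overlapped over most of their length, with the lowest value of each group in replicate 1. The log2 fold change was -0.04 (SE 0.12, 95% interval -0.29 to 0.22, adjusted p = 0.998 in edgeR), so changes beyond 0.820-fold and 1.16-fold lie outside the interval.

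The balance between both cyclase-associated proteins therefore differed between the groups, and since it is built on the Cap2 difference it is given as a description. Per length of merged exons, Cap1 exceeded Cap2 by 15.3, 18.3, 17.6 and 23.8 times with water and by 54.8, 71.8, 124 and 69.8 times with zinc, in the order of replicates 1 to 4. Cap2 made up 6.12, 5.17, 5.38 and 4.04% of Cap1 and Cap2 together with water and 1.79, 1.37, 0.799 and 1.41% with zinc. Cap1 was thus the main cyclase-associated protein gene in every library of both groups.

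Cfl1, the non-muscle cofilin, differed between the groups by less than its spread, with means of 124 ± 16.9 and 126 ± 14.0 CPM (SD, n = 4 each). It had CPM values of 108, 131, 114 and 145 with water, in the order of replicates 1 to 4, and of 113, 120, 127 and 146 with zinc. Its log2 fold change was 0.02 (SE 0.12, 95% interval -0.24 to 0.28, adjusted p = 0.998 in edgeR). In both groups replicate 1 was the lowest and replicate 4 the highest.

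Cfl2, the cofilin of muscle, was well above the detection limit in these epithelial cells, with 168 to 223 counts per library. It had CPM values of 10.6, 8.76, 9.43 and 6.42 with water, in the order of replicates 1 to 4, and of 10.3, 8.74, 7.94 and 8.53 with zinc. Here replicate 1 was the highest of each group, the reverse of Cfl1. The log2 fold change was 0.01 (SE 0.18, 95% interval -0.36 to 0.39, adjusted p = 0.998 in edgeR).

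Dstn, the actin-depolymerising factor next of kin to the cofilins, had the most counts of the 7 genes. It had CPM values of 318, 278, 254 and 306 with water, in the order of replicates 1 to 4, and of 303, 253, 251 and 294 with zinc. Within each group replicates 1 and 4 lay above replicates 2 and 3. Its log2 fold change was -0.07 (SE 0.12, 95% interval -0.32 to 0.18, adjusted p = 0.998 in edgeR).

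Pfn1, the general profilin, had CPM values of 213, 236, 177 and 225 with water, in the order of replicates 1 to 4, and of 198, 221, 224 and 259 with zinc. The highest value was in zinc replicate 4 and the lowest in water replicate 3, and the groups overlapped between them. The log2 fold change was 0.09 (SE 0.12, 95% interval -0.18 to 0.35, adjusted p = 0.998 in edgeR).

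Pfn2, the neuronal profilin, was rare and did not pass the low-count filter of the edgeR test. Its counts were 10, 5, 21 and 4 with water and 1, 8, 8 and 6 with zinc, in the order of replicates 1 to 4, or 0.625, 0.215, 0.888 and 0.153 CPM and 0.0594, 0.386, 0.316 and 0.233 CPM. At this depth 3 counts, the upper limit that a count of 0 allows, amounted to 0.115 to 0.188 CPM. The group means of 0.470 ± 0.349 and 0.249 ± 0.141 CPM (SD, n = 4 each) lay within the spread between mice, and a difference was not detectable.

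Of the 7 genes, 6 passed the low-count filter, and 1 of them (Cap2, the gene selected on this contrast) passed the threshold of adjusted p below 0.05, against 0.0834% of the 11988 tested genes. Of the 5 other tested members, 0 passed in edgeR, 0 had an unadjusted p below 0.05 (4.65% of all tested genes), and in 0 did the groups fail to overlap (2.84% of all tested genes). DESeq2 and limma-voom called no member besides Cap2. The smallest unadjusted edgeR p of these 5 genes was 0.502, for Pfn1. Their standard errors ran from 0.12 to 0.18 on the log2 scale, against 0.35 for Cap2.

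**Figure D2:**
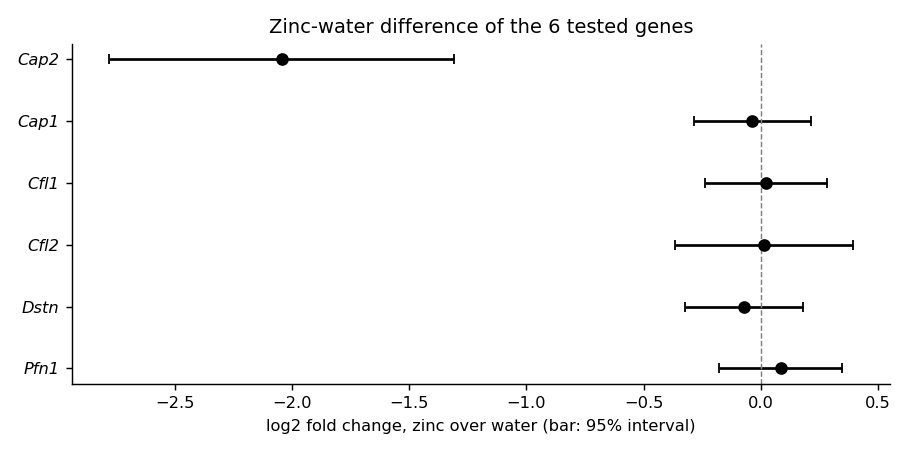
Log2 fold change of zinc over water for the 6 tested genes, each a point with its 95% interval from the edgeR fit. The interval of Cap2 runs from -2.78 to -1.31, and the intervals of Cap1, Cfl1, Cfl2, Dstn and Pfn1 all include 0 and end within -0.36 and 0.39.

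Per length of merged exons, the order of the 7 genes was Dstn, Pfn1, Cfl1, Cap1, Cfl2, Cap2 and Pfn2. The means over the 8 libraries were 54.5, 50.4 and 40.2 CPM per kb for Dstn, Pfn1 and Cfl1, 8.79 for Cap1, 2.44 for Cfl2, 0.298 for Cap2 and 0.0534 for Pfn2. Dstn lay above Pfn1 in only 4 of 8 libraries, so these neighbours did not differ in a fixed direction. Pfn1 lay above Cfl1 in 8 of 8 libraries although their ranges overlapped. Cfl1, Cap1, Cfl2 and Cap2 followed each other with no overlap of ranges, by factors of 4.58, 3.599 and 8.20. The place of Cap2 above Pfn2 held in 8 of 8 libraries, but the range of Cap2 with zinc (0.0746 to 0.133) met that of Pfn2 with water (0.0227 to 0.132).

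**Figure D3:**
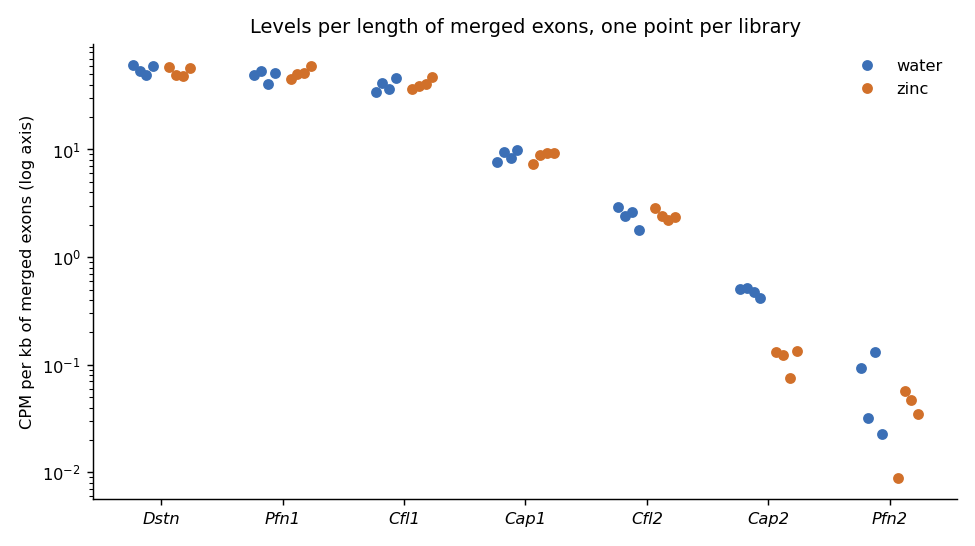
CPM per kb of merged exons for the 7 genes on a log axis, in order of their mean, with 1 point per library (water blue, zinc orange). Dstn, Pfn1 and Cfl1 lie close together between 34.5 and 61.4, and Cap2 is the one gene whose blue and orange points are apart.

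The make-up of the cofilin and profilin families was tested on its own, because it does not depend on the scaling of a library. Dstn made up 62.1, 54.8, 55.6 and 55.0% of Cfl1, Cfl2 and Dstn together with water and 59.96, 54.4, 53.1 and 53.6% with zinc (replicates 1 to 4, per length of merged exons). The difference of -1.61 percentage points lay within the spread (exact two-sided permutation p = 0.457, adjusted over 3 shares p = 0.686), and it was 0.13 points without water replicate 1. Cfl2 held 2.97, 2.47, 2.95 and 1.65% with water and 2.92, 2.68, 2.40 and 2.23% with zinc, a difference of 0.05 points (exact permutation p = 0.943, adjusted p = 0.943) that turned to -0.24 when water replicate 4 was left out and to -0.07 when zinc replicate 1 was. Cfl1 held the remainder, 40.6 ± 3.86% in the water and 42.2 ± 3.43% in the zinc group (SD, n = 4 each). Pfn2 was between 0.0193 and 0.324% of both profilins in every library, with means of 0.154 and 0.0704% (exact permutation p = 0.314, adjusted p = 0.686). Destrin, not a cofilin, was thus the most abundant transcript of its family in all 8 libraries.

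Across mice, some of the abundant genes varied together or in opposition. How often pairs of all tested genes reach such values was not counted, so the relations cannot be called particular to these genes. Over the 8 libraries, log2 CPM of Cap1 and Cfl1 correlated with Pearson's r = 0.85 (exact permutation p = 0.00853, adjusted p = 0.0320) and Spearman's rho = 0.90 (exact permutation p = 0.00456, adjusted p = 0.0362). Cfl2 ran against both. Its r was -0.87 with Cap1 (exact permutation p = 0.00335, adjusted p = 0.0320) and -0.82 with Cfl1 (exact permutation p = 0.00771, adjusted p = 0.0320), and its rho was -0.81 (adjusted permutation p = 0.0467) and -0.83 (adjusted permutation p = 0.0384). Without the 2 libraries farthest from the median on the first-named gene the 3 values of r were 0.85, -0.84 and -0.88. Pfn1 passed by rank but not by Pearson's r, with rho of 0.83 to Cap1 and 0.88 to Cfl1 (adjusted permutation p = 0.0384 and 0.0362) and r of 0.58 and 0.73 (adjusted permutation p = 0.241 and 0.0734). Dstn had r between -0.29 and 0.22 to the other 4 genes with adjusted permutation p of 0.601 or more, and between -0.58 and 0.77 without the 2 farthest libraries.

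Cap1, Cfl1 and Cfl2 also varied with the effective size of the libraries. The effective library size (total counts times the TMM factor) ran from 15.99 to 26.2 times 1000000 counts and entered every CPM as the denominator. It correlated with Cap1 at r = 0.89 (exact permutation p = 0.00662, adjusted p = 0.0320; rho = 0.79, adjusted permutation p = 0.0524), with Cfl1 at r = 0.82 (adjusted permutation p = 0.0389; rho = 0.86, adjusted permutation p = 0.0384) and with Cfl2 at r = -0.80 (adjusted permutation p = 0.0345; rho = -0.88, adjusted permutation p = 0.0362). Without the 2 farthest libraries these r fell to 0.53, 0.68 and -0.57. With Dstn and Pfn1, r was -0.43 and 0.37 (adjusted permutation p = 0.461 and 0.508). All adjusted values cover 15 relations, and the part of the scaling in the relations between genes was not tested. The permutations treated all 8 libraries as exchangeable. Same-numbered water and zinc libraries were alike in effective size, at 15.99 and 16.8 times 1000000 in replicate 1 and 26.2 and 25.8 in replicate 4. If the numbers mark a shared factor, the permutation p-values of this and the preceding paragraph are too small.

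The wider actin machinery was read from 10 lists that held 116 other genes, of which 92 passed the low-count filter. Of these, 0 passed the threshold in edgeR, DESeq2 or limma-voom, against the 0.0834% of all tested genes given above. Of the 92, 1 had an unadjusted p below 0.05, where the share over all tested genes was 4.65%, and the groups did not overlap in 2, where it was 2.84%. Log2 fold changes were above 0 in 39 and below 0 in 53, with a median of -0.03 against 0.01 over all 11988 tested genes.

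**Figure D4:**
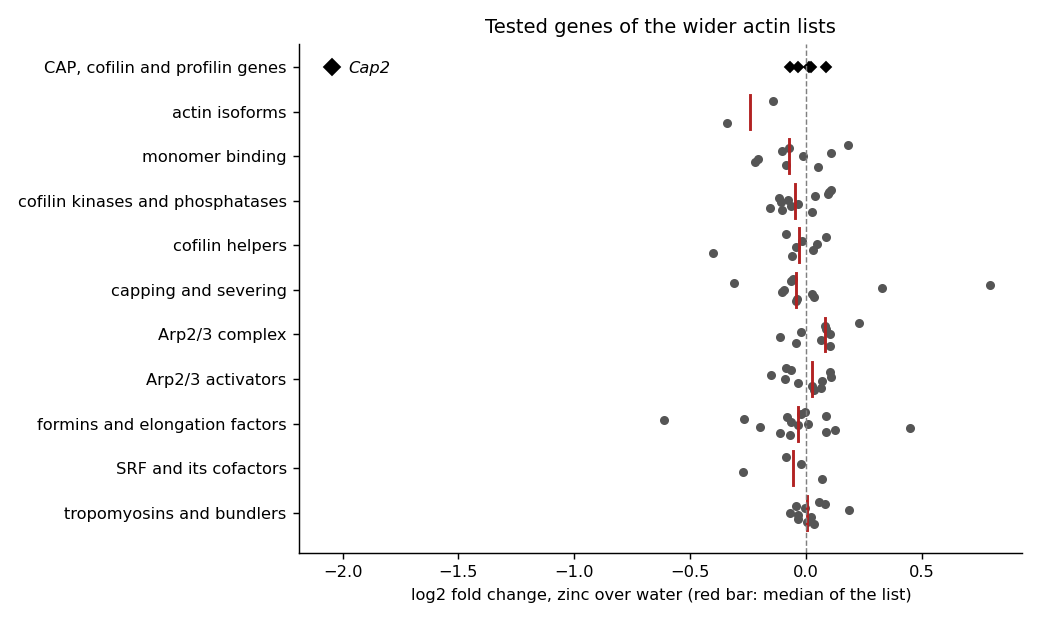
Log2 fold change of zinc over water for each tested gene of the 10 wider actin lists (grey points, red bar for the list's median) below the 6 tested genes of the cyclase-associated protein, cofilin and profilin families (black diamonds). Cap2 stands alone at -2.05, while the 92 wider genes lie between -0.61 and 0.79.

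Among the actins, Actb, the cytoplasmic β-actin gene, was the most abundant per length (121 CPM per kb) and stood at 371 ± 45.9 CPM in the water group and 336 ± 44.5 CPM in the zinc group (SD, n = 4 each), which gave a log2 fold change of -0.14 ± 0.13 (SE, adjusted p = 0.998 in edgeR). It was also the tested actin with the smallest p. The γ-actin gene Actg1 had only 0 to 22 counts per library. Of its 75-base windows, 34.4% occurred in no other gene, against 98.4% for Actb, and 9 of the 14 genes that shared the rest were pseudogenes. Since the sources used here do not say how shared reads were treated, the level of Actg1 is uncertain. Of the muscle actins, Acta1, the skeletal form, had 8 to 40 counts per library and was tested (log2 fold change -0.34, SE 0.50, adjusted p = 0.998 in edgeR), and Acta2, Actc1 and Actg2 had at most 1 count in any library.

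Of the genes listed under binding of actin monomers, 9 of 11 were tested and 0 passed. The list also held the profilin genes Pfn3 and Pfn4, which were not tested, and genes such as Mical2 that modify actin. Tmsb4x, thymosin β4, which keeps monomers in reserve, was the highest per length (133) at 228 ± 56.4 CPM in the water group and 212 ± 33.7 CPM in the zinc group (SD, n = 4 each). Mical2, an oxidase of actin, had the smallest p of this list with a log2 fold change of -0.22 ± 0.15 (SE, adjusted p = 0.998 in edgeR).

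Of the kinases and phosphatases that act on cofilin or on its LIM kinases, 12 of 13 were tested and 0 passed. Their log2 fold changes lay between -0.16 and 0.11. Pak2, a kinase upstream of LIM kinases, was the highest per length (10.05) and had a log2 fold change of -0.06 (SE 0.11). Pak1 had the smallest p with -0.16 ± 0.12 (SE, adjusted p = 0.998 in edgeR).

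Of 10 genes whose products act beside cofilin, 8 were tested and 0 passed. Coro1b, a coronin, was the highest per length (11.7), at 50.2 ± 3.43 CPM in the water group and 51.2 ± 1.72 CPM in the zinc group (SD, n = 4 each). Abl2, a tyrosine kinase that binds filaments, was the 1 tested gene of the 10 lists with an unadjusted edgeR p below 0.05. It stood at 16.5 ± 2.43 CPM in the water group and 12.5 ± 1.11 CPM in the zinc group (SD, n = 4 each). This was a log2 fold change of -0.40 (SE 0.15) with an unadjusted p of 0.0134 in edgeR (adjusted p = 0.988).

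Of 15 capping and severing genes, 11 were tested and 0 passed. Vil1, villin of the microvilli, was the highest per length (56.9) at 282 ± 21.6 CPM in the water group and 271 ± 17.8 CPM in the zinc group (SD, n = 4 each). Svil, supervillin, had the smallest p with a log2 fold change of -0.31 ± 0.22 (SE, adjusted p = 0.998 in edgeR). The largest log2 fold change of all lists was 0.79 for the severing protein gene Scin (SE 1.04), which is named after its values were seen.

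The Arp2/3 complex, which starts branches on filaments, had 9 of 10 genes tested and 0 past the threshold, with 6 values above and 3 below 0. Arpc5 was the highest per length (36.7) with a log2 fold change of 0.08 (SE 0.11), and Arpc5l had the smallest p with 0.23 ± 0.14 (SE, adjusted p = 0.998 in edgeR). Arpc2 was one of the genes whose groups did not overlap, with 94.7 to 106 CPM with water and 108 to 113 CPM with zinc (log2 fold change 0.10, SE 0.10), and is named for this reason after its values were seen. Of 15 activators of the complex, 11 were tested and 0 passed. Brk1, a small subunit of the WAVE complex, was the highest per length (28.1) with 0.02 (SE 0.11), and Wasf2, its WAVE subunit, had the smallest p with -0.15 ± 0.13 (SE, adjusted p = 0.998 in edgeR).

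Formins take monomers from profilin, and 15 of the 19 genes listed as formins and elongation factors were tested with 0 past the threshold. Vasp was the highest per length (16.2) with a log2 fold change of -0.00446 (SE 0.11). Fmnl2, a formin at 0.428 CPM per kb, near the 0.298 of Cap2 (2.97 ± 0.888 CPM in the water group and 1.95 ± 0.448 CPM in the zinc group, SD, n = 4 each), had the smallest p, with a log2 fold change of -0.61 ± 0.31 (SE, adjusted p = 0.998 in edgeR). Evl, a relative of Vasp, was the other gene without overlap, with 10.91 to 12.5 CPM with water and 9.80 to 10.86 CPM with zinc, and is named after its values were seen.

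Serum response factor and its MRTF cofactors sense the pool of free actin and switch on actin genes. All 4 genes of this list, Vcl as a target included, were tested and 0 passed. Vcl, vinculin, was the highest per length (3.71) with a log2 fold change of -0.09 (SE 0.12), and Mrtfb had the smallest p with -0.27 ± 0.17 (SE, adjusted p = 0.998 in edgeR). Of 13 tropomyosins and bundling proteins, 11 were tested and 0 passed. Actn1, α-actinin 1, was the highest per length (20.2) with 0.03 (SE 0.11), and Pls1, the plastin of the intestinal brush border, had the smallest p with 0.19 ± 0.13 (SE, adjusted p = 0.998 in edgeR).

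The 5 genes whose pattern over the 8 libraries was most like that of Cap2 were not from the actin lists. These lists held only 92 of the 11988 tested genes, so their absence says little about actin genes. Likeness was the root mean square difference between log2 CPM profiles, each centred on its own mean, over 11091 genes of at least 1 CPM, so it largely restates the difference on which Cap2 was selected. The 5 nearest genes were Pxdn (0.34), a peroxidase of the extracellular matrix, Zc3h12a (0.34), an RNase that degrades inflammatory transcripts, Cd14 (0.46), a co-receptor for lipopolysaccharide, Casp4 (0.47), an inflammatory caspase, and Nfkbiz (0.47), a nuclear IκB protein. The other tested members differed from Cap2 by 0.96 for Dstn to 1.05 for Pfn1, with ranks from 2208 to 6658 among the 11091 genes. Any gene without a zinc difference stands apart from Cap2 by this measure, so these values follow from the choice of Cap2.

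The values in single libraries show how near these profiles came. Pxdn had CPM values of 9.94, 12.3, 13.2 and 14.4 with water, in the order of replicates 1 to 4, and of 5.94, 2.95, 2.41 and 4.89 with zinc. Zc3h12a stood at 15.8, 17.4, 18.6 and 13.7 CPM with water and at 6.77, 7.00, 5.45 and 7.10 CPM with zinc. The lowest zinc value of Pxdn, Zc3h12a and Nfkbiz was in replicate 3, as for Cap2, but that of Cd14 was in replicate 1 (1.48 CPM) and that of Casp4 in replicate 2 (2.46 CPM). Zc3h12a, like Cap2, had its lowest water value and its highest zinc value in replicate 4. For Cap2 the latter was 0.776 CPM, against 0.772 CPM in zinc replicate 1. Pxdn, Cd14 and Casp4 had their highest water value in replicate 4. Since these genes were chosen for nearness to Cap2, a shared order is no separate result. Water and zinc did not overlap in Pxdn, Zc3h12a, Cd14 and Casp4. In Nfkbiz they did, with 12.0 CPM in water replicate 4 and 13.4 CPM in zinc replicate 1.

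**Figure D5:**
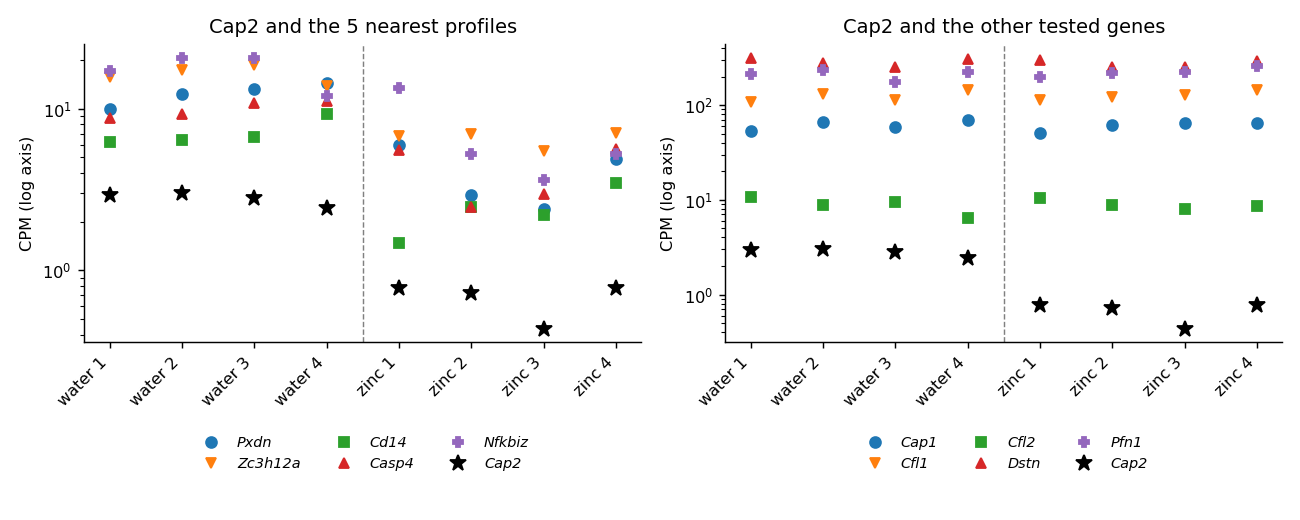
CPM on a log axis in each of the 8 libraries (dashed line between water and zinc), with Cap2 as black stars beside the 5 nearest profiles on the left and beside the other 5 tested genes on the right. Cap2 steps from 2.44 CPM or more to 0.776 CPM or less, and of the genes on the left all but Nfkbiz are likewise free of overlap, while the groups overlap in every gene on the right.

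Promoter windows were read for letters linked to zinc and to actin sensing (RefSeq, GRCm38.p6, 250 bases before to 50 after the start, both strands, all 7 genes matched). The core of the metal response element (TGCACNC or TGCGCNC) occurred 0 times in the windows of Cap2, Cap1 and Cfl1, 1 time in those of Cfl2, Pfn1 and Pfn2 and 2 times in that of Dstn, against 3 in Mt1 and 4 in Mt2, the metallothionein genes. It occurred in 25.7% of all 32851 promoter windows. The CArG box of serum response factor occurred in 0 of the 7 windows and in 1.63% of all. The Cap2 window had 48.3% GC and 9 CpG, against 57 to 77.7% and 11 to 45 in the windows of Cap1, Cfl2, Dstn, Pfn1 and Pfn2 and 54.7% and 22 in that of Cfl1. The medians over all windows were 52.7% GC and 7 CpG, and 54.2% of windows had fewer CpG than that of Cap2.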

How the data were processed

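The deposited values were raw counts of reads, as whole numbers, for each Ensembl gene and library. The submitters' processing notes name FastQC 0.12.0, STAR 2.7.0a, DESeq2 and the mm39 build; the sources used here do not give the counting program, its strand setting or its treatment of multi-mapped reads. No column of another sample was present. IDs were matched to GENCODE M39 (54749 of 55414). Zinc was compared with water by the quasi-likelihood F test of edgeR 4.0.16 (R 4.3.3; default filter with minimum count 10, TMM scaling, robust fit, treatment only), with Benjamini-Hochberg adjustment over 11988 genes and a threshold of 0.05. Levels per length used merged exons. The procedure was tested on simulated data. Shares and correlations were tested by exact permutation (Python 3.11.15); 70 assignments of 4 against 4 libraries allow a smallest p of 0.0286. Alternatives were RLE factors, library totals, DESeq2 1.42.0, limma-voom (limma 3.58.1), a block on replicate number, no filter, a minimum mean count of 50, no Defa genes and each library left out. Replicates were separate mice. Intervals and the 3-count limit cover counting error only, since the libraries had no molecular identifiers.

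The genes, lists and rules were chosen with earlier results of these data known. The text names the 7 genes, the most abundant (per length) and smallest-p tested gene of each of 10 actin lists, any of these lists past the threshold, and the 5 genes nearest to Cap2 in profile (prior count 2). Markers of 12 cell types were summed.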

Additional observations from a re-analysis of the deposited data

Results flagged for a closer look

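Within each group of 4 libraries, a library was singled out where its gap to the nearest other, as a share of the group's range, was past the 95% limit of Dixon's test, which happens by chance in about 1 in 20 groups. This held for 6 of 48 groups.

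For Cap2, zinc replicate 3 lay at 0.435 CPM, below the remaining zinc libraries (0.724 to 0.776 CPM). With library totals as the only scaling the gap was 0.287 of the range. The count there was 11 (exact Poisson 95% interval 5.49 to 19.7). Without this library the log2 fold change of Cap2 was -1.88 (edgeR adjusted p = 0.0970).

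Dstn took a high share of its family in water replicate 1, at 62.1% against 54.8 to 55.6% in the other water libraries. Zinc replicate 1, at 59.96%, was also the highest of its group. Without water replicate 1 the zinc-water difference of this share was 0.13 points instead of -1.61 points.

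Markers of other cell types set 4 libraries apart. Goblet cell markers summed to 3758 CPM in water replicate 3 (5133 to 5244 CPM in the rest of its group) and to 7607 CPM in zinc replicate 4 (4342 to 4670 CPM in the rest). Enterocyte markers summed to 345 CPM in zinc replicate 1, against 402 to 410 CPM. Fibroblast markers summed to 0.313 CPM in water replicate 1 and to 0 in the other water libraries. The part of these cells in the values of the actin genes was not tested.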

How the results depend on the processing

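Of 7 genes, 1 (Cap2) passed the threshold; with library totals only and with a mean count of at least 50, where Cap2 was not tested, the count was 0, and it ran from 0 to 1 over the 8 fits without 1 library. The log2 fold change of Cap2 was -2.04 with library totals (edgeR adjusted p = 0.0689), -2.02 without water replicate 1, -2.01 without water replicate 2, -2.05 without water replicate 3, -2.08 without zinc replicate 2 and -1.88 without zinc replicate 3 (edgeR adjusted p = 0.0555, 0.126, 0.117, 0.0980 and 0.0970). In the fits where Cap2 passed, its adjusted p ran down to 5.33e-05 (DESeq2).

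Without 1 library, Cap1 ran from -0.10 to 0.0386, Cfl1 from -0.0577 to 0.10 and Cfl2 from -0.12 to 0.11 on the log2 scale, and so changed sign in 2, 3 and 2 fits. Dstn and Pfn1 kept their sign in all 16 alternatives. The Cfl2 share difference ran from -0.24 to 0.20 points, that of Dstn from -3.17 to 0.13 and that of Pfn2 from -0.12 to -0.03. Over all genes 36 passed with DESeq2, 66 without the low-count filter and 1 to 15 without 1 library. The wider actin lists had 0 past the threshold in all of these. The cause of these changes was not tested. Pfn2, tested only without the filter or by DESeq2, had log2 fold changes of -0.87 and -0.89 (unadjusted p = 0.321 and 0.289).

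Whether a replicate number pairs the mice is not stated in the sources used here. Deviations of same-numbered libraries correlated at 0.233, 0.0000551, 0.127 and 0.263, and different-numbered libraries were not compared. The Paneth cell markers summed highest in replicate 1 of the water and zinc groups (709921 and 704830 CPM). They summed lowest in replicate 4 (362154 and 342692 CPM). A factor shared by number is therefore possible, and the main fit, with treatment only, does not account for it. With the replicate block, 32 genes and 1 gene of the wider lists (Scin, edgeR adjusted p = 0.0186) passed, and no member changed its call. For the shares, the 16 sign assignments of 4 pairs allow no p below 0.125, so the block could not bring one past the threshold. The Dstn share was lower with zinc in 4 of 4 same-numbered pairs, with an exact paired permutation p of 0.125 that is the smallest possible.

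Detection was limited by standard errors of 0.12 to 0.18 in the 5 other tested genes and by counts of 1 to 21 in Pfn2.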

Other observations

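Scin, which encodes a filament-severing protein of the gelsolin family and is named after its values were seen, had its highest value of each group in replicate 4. Its CPM values were 2.44, 3.14, 3.81 and 21.9 with water and 3.68, 7.00, 7.74 and 36.2 with zinc, in the order of replicates 1 to 4. In both groups replicate 1 was the lowest, and in 4 of 4 same-numbered pairs the zinc value was the higher one. The sources used here do not say what the replicate numbers stand for.

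Of the 116 genes of the wider actin lists, 24 did not pass the low-count filter, and Acta2, Pfn3, Tmod4, Was and Wasf3 had 0 counts in all 8 libraries.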
